A study of Homo sapiens with 8 samples.

Results

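The 10 genes described here encode the transcription factor NRF2 (NFE2L2), its inhibitor KEAP1 and 8 enzymes and redox proteins that NRF2 is widely described as controlling. These are NQO1, GCLC, GCLM, TXNRD1, SRXN1, TXN, PRDX1 and GSR. They were taken by name from a count table of 78899 genes, each matched a single gene identifier, and all 10 were among the 16249 genes with enough counts to be tested. Bulk RNA sequencing had been carried out on GFP-labelled human microglia, the resident macrophages of the brain, sorted by fluorescence from cultures harvested 2 weeks after plating. Tri-culture microglia (4 libraries) had grown with other cells, which the labels do not name, and had received medium changes with no added cytokine. Mono-culture microglia (4 libraries) had grown alone with IL-34 at 100 ng/mL and M-CSF at 10 ng/mL, ligands of the CSF1 receptor on which microglia depend for survival. The partner cells and the cytokine supplement therefore changed together and cannot be told apart. Both groups derived from H1, an established embryonic stem cell line, although the labels also call the cells iPSC-derived. The 4 batches, numbered 1 to 4, gave 1 library to each group.

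NRF2 is made continuously and, in unstressed cells, KEAP1 hands it to a ubiquitin ligase for destruction. Oxidants and electrophiles modify cysteines of KEAP1, and NRF2 then accumulates, pairs with a small MAF protein and binds the antioxidant response element of its target genes. Those targets make and recycle glutathione and thioredoxin, supply NADPH and detoxify quinones and haem. Microglia produce superoxide through NADPH oxidase, and this pathway is known for limiting oxidative damage and inflammatory signalling in them.

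The antioxidant response element was searched in promoters because it is the sequence through which NRF2 acts. RefSeq promoter windows (GRCh38.p14, 250 bases before to 50 bases after a transcription start) were matched for 8 of the 10 genes, all but PRDX1 and GSR, which gave 11 windows. The core TGACNNNGC, or GCNNNGTCA on the other strand, occurred in windows of 3 of these 8 genes, KEAP1, GCLM and TXNRD1. Over all RefSeq windows, 13.3% of 35116 windows and 16.1% of 27305 genes held it. The matches are printed on the strand of the gene, with the core in capitals and flanking bases in lower case. Coordinates are those of the whole printed stretch of 29 bases, and distances are to the centre of the core. No match of these 3 genes overlapped the AP-1 motif TGACTCA. The single GCLM match lay at chr1:93909446-93909474, minus strand, centred 30 bases before the start. The KEAP1 matches lay at chr19:10502807-10502835 and chr19:10502784-10502812, minus strand, centred 50 and 27 bases before the start of the gene's second window. The TXNRD1 matches lay on the plus strand at chr12:104215670-104215698, 95 bases before the first start, and at chr12:104286920-104286948, 98 bases before the second start. Another TXNRD1 match lay across the first start and is not shown. ME1, a wider NRF2 target, is shown for comparison and had 2 matches. The one at chr6:83431170-83431198, minus strand, 133 bases before the start, does overlap an AP-1 motif. The other ME1 match, centred 15 bases after the start, does not overlap one and is not shown. A match of letters is a description and does not show binding. Sequence outside these windows was not searched, so a gene without a match here may still hold the element.
GCLM: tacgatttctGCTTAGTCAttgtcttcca
KEAP1, upstream match: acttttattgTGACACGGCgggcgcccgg
KEAP1, downstream match: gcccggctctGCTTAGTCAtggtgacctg
TXNRD1, first window: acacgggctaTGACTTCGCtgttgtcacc
TXNRD1, second window: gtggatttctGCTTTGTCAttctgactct
ME1: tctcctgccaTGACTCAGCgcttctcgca

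Library totals were 17602010 to 24491765 counts in tri-culture and 17037481 to 33363972 counts in mono-culture (2-sided exact permutation p = 0.429, n = 4 each). Microglial markers were present in every library, with none at 0, and 11 of 11 were tested, of which 5 were higher in tri-culture. Their summed level was 6770 to 8406 CPM in tri-culture and 4844 to 6019 CPM in mono-culture. Here CPM stands for counts per 1e+06 of a library's total after TMM scaling, which adjusts for composition. Markers of other cells also differed between the groups. Of 15 tested astrocyte markers 13 were higher in tri-culture, and their sum was 793 to 908 CPM in tri-culture and 232 to 305 CPM in mono-culture. AQP4, ALDH1L1 and SOX2 had no count in mono-culture. Of 6 tested neuron markers 4 were higher and 1 lower (sums 31.5 to 59.5 CPM in tri-culture and 25.3 to 47.8 CPM in mono-culture), and SNAP25, STMN2, DCX and GAP43 had no count in mono-culture. Dendritic cell markers were higher for 4 of 6 tested genes (314 to 441 CPM in tri-culture and 67.4 to 88.2 CPM in mono-culture). FLT3 was near absent in both groups, with 4 counts over the tri-culture libraries and 0 in mono-culture. Mesenchymal markers, of which 1 of 4 tested was higher, ran from 18.3 to 373 CPM in tri-culture and from 15.5 to 35.4 CPM in mono-culture. A single pluripotency marker was tested, and it was higher. The part of these other cells in the values below was not tested. In such bulk samples, fewer cells expressing a gene and less of its RNA per cell cannot be told apart.

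The glutathione enzymes GSR and GCLM fell in tri-culture microglia, and none of the 10 genes rose. GSR, which regenerates glutathione from its oxidised form, was 2.02-fold lower. GCLM, the modifier subunit of the enzyme that starts glutathione synthesis, was 1.58-fold lower. The catalytic subunit GCLC, the thioredoxin TXN, its reductase TXNRD1 and the peroxiredoxin PRDX1 did not pass the test, nor did NFE2L2, KEAP1, NQO1 and SRXN1. Genes were tested with edgeR's quasi-likelihood test, and a gene was called where its Benjamini-Hochberg adjusted p over all tested genes was below 0.05. By that rule 2 of 10 members were lower and 0 of 10 higher, beside 13.0% of all tested genes lower and 13.9% higher (26.9% in either direction). The 2 of 10 is thus not far from the share over the whole table. All 10 fitted log2 fold changes were below 0, as were 47.9% of those of all tested genes, although GCLC and TXN moved to the other side of 0 with library-size or upper-quartile scaling. The median over the 10 was -0.27 on the log2 scale, beside 0.02 over all tested genes. In 6 of the 10 the tri-culture library was below the mono-culture library of the same batch in all 4 batches, which held for 21.7% of all tested genes. SRXN1, 1 of these 6, was nearly level in batch 2, at 0.489 CPM in tri-culture and 0.500 CPM in mono-culture.

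**Figure D1:**
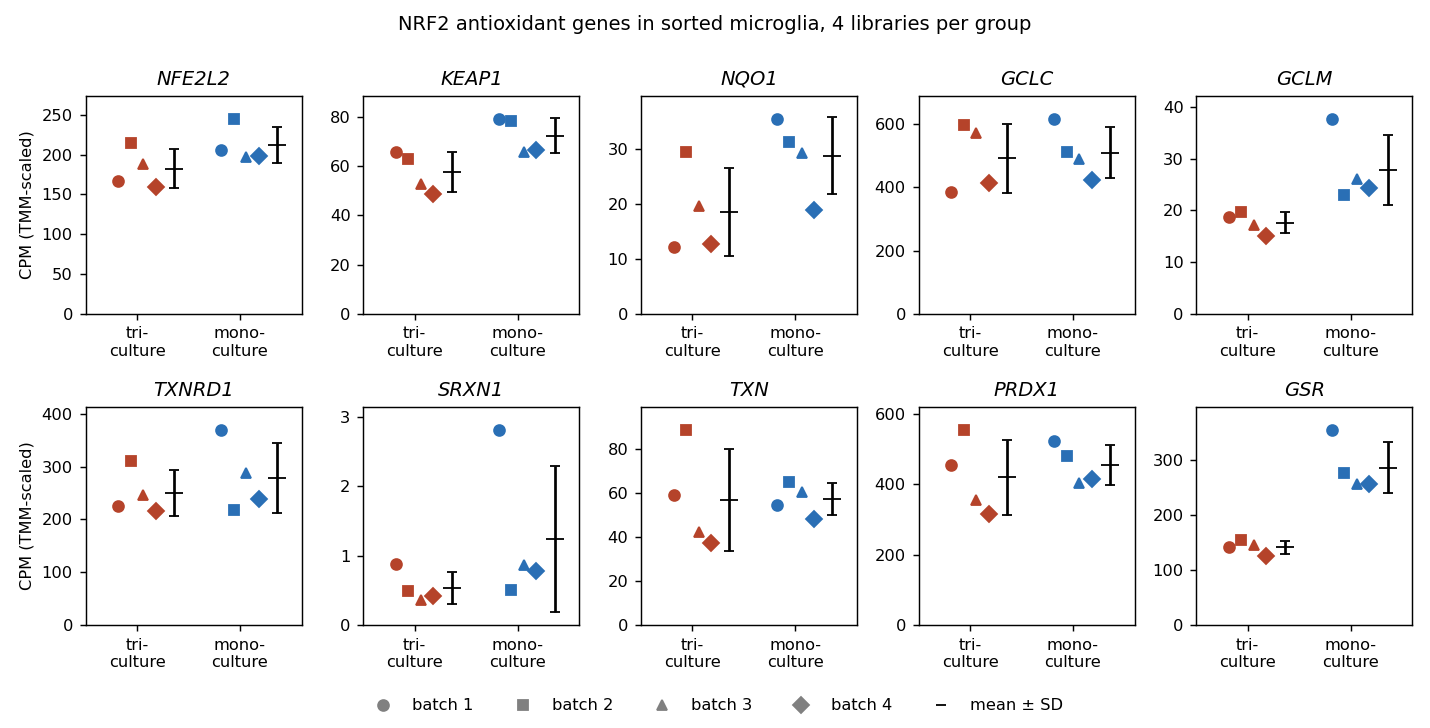
TMM-scaled CPM of each gene in the 4 tri-culture libraries (red, left) and the 4 mono-culture libraries (blue, right), with a marker shape for each batch and the mean ± SD beside the points. Each panel has its own linear axis from 0. The groups are apart for GCLM (15.02 to 19.7 CPM in tri-culture and 23.0 to 37.7 CPM in mono-culture) and GSR (126 to 154 CPM in tri-culture and 255 to 354 CPM in mono-culture), and overlap in the other 8 panels.

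The batch numbers pair the libraries, and with the batch as a block edgeR called 4 of 10 members lower, beside 14.5% of all tested genes in that fit. GSR and GCLM were joined by KEAP1 and NQO1, and no member was called higher. Without batches 1 and 2, 4 members were lower, namely GSR, GCLM, KEAP1 and TXN (17.3% of the genes tested there). Without batches 3 and 4, 1 member was lower (9.61%).

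**Figure D2:**
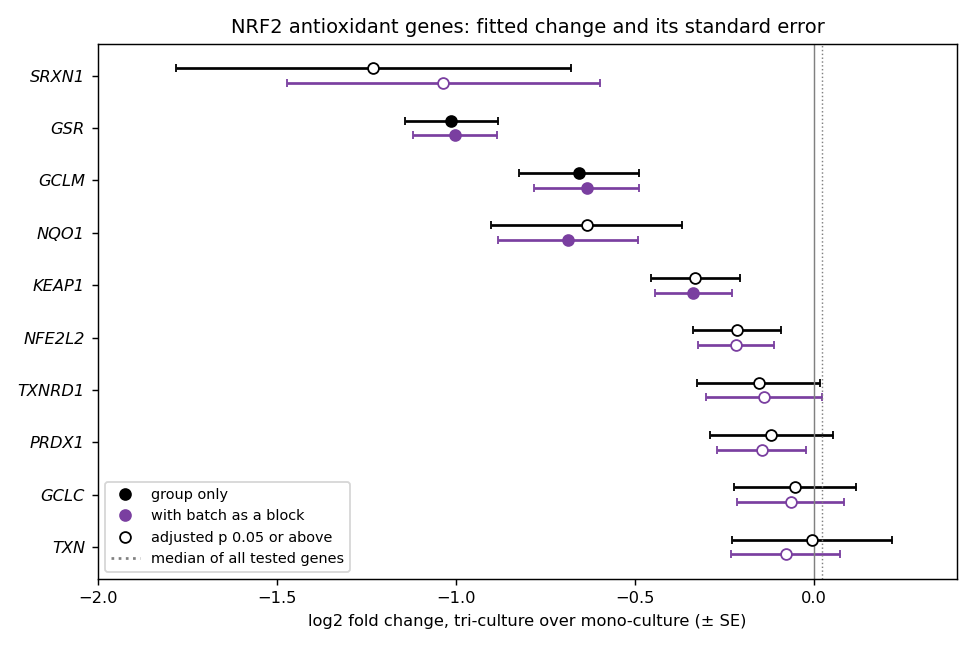
Fitted log2 fold change of tri-culture over mono-culture for each gene, with bars of 1 SE, from the fit on group only (black) and the fit with batch as a block (purple). Filled points have an adjusted p below 0.05. GSR and GCLM are filled in both fits, KEAP1 and NQO1 only with the block, and the dotted line is the median of all tested genes at 0.02.

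NFE2L2 and KEAP1 are the regulatory pair of the pathway. NFE2L2 (ENSG00000116044, chr2:177227595-177392697, minus strand) stood at 167, 215, 188 and 160 CPM in the tri-culture libraries of batches 1 to 4, and at 207, 245, 197 and 198 CPM in the mono-culture libraries. The tri-culture library was the lower of the pair in all 4 batches, but the groups overlapped. Its log2 fold change was -0.21 ± 0.12 (SE, edgeR adjusted p = 0.236). NRF2 is controlled mainly through the stability of the protein, which RNA counts do not measure. Other annotated genes share 17.6% of the exon bases of NFE2L2 on the same strand and 4.08% on the opposite strand. They are AC019080.1, AC079305.1 and AGPS, and the overlap was not split between them. AGPS had 21937 counts over the 8 libraries and AC019080.1 had 1431, against 36494 for NFE2L2. It is not stated how shared reads were counted.

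KEAP1 (ENSG00000079999, chr19:10486120-10503741, minus strand), the substrate adaptor that brings NRF2 to its ubiquitin ligase, had 65.8, 62.8, 52.7 and 48.7 CPM in tri-culture and 79.2, 78.2, 65.7 and 66.7 CPM in mono-culture. All 4 batch pairs were lower in tri-culture, and the groups overlapped only where the highest tri-culture library met the lowest mono-culture one. Its log2 fold change was -0.33 ± 0.12 (SE, edgeR adjusted p = 0.0664). With batch as a block it was -0.34 with an adjusted p of 0.0284. Of the 8 fits that left out 1 library, KEAP1 passed only without tri-culture library 1 (-0.41, adjusted p = 0.0345), and the other 7 gave adjusted p of 0.0569 to 0.174. With 2 libraries a group, it passed without batches 1 and 2 (-0.38, adjusted p = 0.0144). It did not pass without batches 3 and 4 (-0.30, adjusted p = 0.157).

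GSR had the smallest adjusted p of the 10 genes. The gene (ENSG00000104687, chromosome 8, 30678061 to 30727999, minus strand) encodes glutathione reductase, which uses NADPH to turn oxidised glutathione back into its reduced form. It stood at 141, 154, 146 and 126 CPM in the tri-culture libraries of batches 1 to 4. In the mono-culture libraries it stood at 354, 276, 257 and 255 CPM. Every tri-culture library lay below every mono-culture library, an order that 14.1% of all tested genes had and that 2 of the 10 members had. The mean was 142 ± 11.7 CPM in tri-culture and 286 ± 46.5 CPM in mono-culture (SD, n = 4 each). The log2 fold change was -1.01 ± 0.13 (SE, edgeR adjusted p = 6.8e-05). No other annotated gene shared exon bases with GSR, and no single library carried the difference, since leaving out each in turn gave -1.07 to -0.89.

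GCLM and GCLC together form glutamate-cysteine ligase, which joins glutamate to cysteine in the rate-limiting step of glutathione synthesis. GCLM (ENSG00000023909, chr1:93885205-93909456, minus strand), whose product raises the efficiency of the catalytic subunit, had 18.8, 19.7, 17.1 and 15.02 CPM in tri-culture and 37.7, 23.0, 26.1 and 24.3 CPM in mono-culture. The groups did not overlap, and mono-culture library 1 stood above the other 3. Means were 17.6 ± 2.04 CPM in tri-culture and 27.8 ± 6.74 CPM in mono-culture (SD, n = 4 each), with a log2 fold change of -0.66 ± 0.17 (SE, edgeR adjusted p = 0.0102). Without mono-culture library 1 the log2 fold change was -0.47 (adjusted p = 0.0274). Without batches 3 and 4, which leaves 2 libraries a group, the call was lost at -0.68 (adjusted p = 0.0720).

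The catalytic subunit GCLC (ENSG00000001084, chr6:53497341-53616970, minus strand) had 384, 596, 572 and 413 CPM in tri-culture and 616, 513, 488 and 423 CPM in mono-culture. Tri-culture libraries 2 and 3 were the higher of their pairs and libraries 1 and 4 the lower, and the groups overlapped through most of their range. The log2 fold change was -0.05 ± 0.17 (SE, edgeR adjusted p = 0.863), and 0.15 without batch 1. Per unit of length, on the scale of the authors' second table, GCLM stood at 0.0757, 0.0511, 0.0464 and 0.0564 of GCLC in tri-culture and at 0.0949, 0.0696, 0.0828 and 0.0891 in mono-culture. The ratio was lower in tri-culture in every batch, while the groups overlapped. Whether the fall of GCLM differed from the change of GCLC was not tested.

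The thioredoxin branch passes electrons from NADPH through TXNRD1 to TXN and on to peroxiredoxins such as PRDX1, which reduce hydrogen peroxide. TXNRD1 (ENSG00000198431, chr12:104215779-104350305, plus strand), cytosolic thioredoxin reductase, had 225, 311, 247 and 216 CPM in tri-culture and 369, 219, 288 and 238 CPM in mono-culture. In batch 2 the tri-culture library was the higher, in the other 3 the lower, and the groups overlapped. Its log2 fold change was -0.16 ± 0.17 (SE, edgeR adjusted p = 0.566), and 0.01 without mono-culture library 1.

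TXN (ENSG00000136810, chr9:110243811-110256640, minus strand), the small protein that reduces disulfides, had 59.3, 88.7, 42.5 and 37.2 CPM in tri-culture and 54.5, 65.2, 60.7 and 48.4 CPM in mono-culture. Within batches, the log2 difference of tri-culture over mono-culture was 0.12 and 0.44 in batches 1 and 2, and -0.51 and -0.38 in batches 3 and 4. The pooled log2 fold change was -0.01 ± 0.22 (SE, edgeR adjusted p = 0.988), with batch differences on both sides of 0. Each batch holds 1 library per group, so these differences cannot be told apart from spread between libraries. Without batches 1 and 2, which leaves 2 libraries a group, the fitted log2 fold change was -0.46 (adjusted p = 0.0171). Without batches 3 and 4 it was 0.30 (adjusted p = 0.344). The second principal component of all tested genes, which held 13.0% of the variance, parted batches 1 and 2 from batches 3 and 4. The 7 named TXN pseudogenes held 17 counts over all libraries, so few reads were assigned to these copies.

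PRDX1 (ENSG00000117450, chr1:45511036-45523047, minus strand) had 455, 553, 355 and 314 CPM in tri-culture and 523, 481, 403 and 415 CPM in mono-culture. Tri-culture library 2 was the highest of all 8, libraries 3 and 4 were the lowest, and the groups overlapped. For PRDX1 the log2 fold change was -0.12 ± 0.17 (SE, edgeR adjusted p = 0.674). MMACHC lies across 24.9% of the PRDX1 exon bases on the other strand, with 876 counts against 81706 for PRDX1 over the 8 libraries.

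SRXN1 (ENSG00000271303, chr20:646615-653370, minus strand), sulfiredoxin, repairs peroxiredoxins whose catalytic cysteine has been over-oxidised. It was the scarcest member, with raw counts of 19, 12, 8 and 8 in tri-culture and 82, 9, 29 and 13 in mono-culture. These correspond to 0.873, 0.489, 0.363 and 0.416 CPM in tri-culture and 2.81, 0.500, 0.865 and 0.780 CPM in mono-culture. Mono-culture library 1 stood apart, and the other libraries of both groups overlapped. The log2 fold change was -1.23 ± 0.55 (SE, edgeR adjusted p = 0.124), and -0.43 (adjusted p = 0.605) without that library. AL121758.1 covers 85.0% of the SRXN1 exon bases on the same strand, with 6 counts in all, and how shared reads were counted is not stated.

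NQO1 (ENSG00000181019, chr16:69706996-69726951, minus strand), which reduces quinones and is often measured as a readout of NRF2 activity, had 12.3, 29.6, 19.6 and 12.8 CPM in tri-culture and 35.6, 31.4, 29.4 and 19.0 CPM in mono-culture. It was lower in tri-culture in all 4 batches, by little in batch 2, and the groups overlapped. The log2 fold change was -0.63 ± 0.27 (SE, edgeR adjusted p = 0.101). The block on batch gave -0.69 (adjusted p = 0.0176), and leaving out tri-culture library 2 gave -0.96 (adjusted p = 0.00774). Some other omissions gave a smaller fall that did not pass, with -0.36 (adjusted p = 0.398) without batch 1 and -0.49 (adjusted p = 0.242) without tri-culture library 4.

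Levels can be compared between genes only per length, for which the authors' second table, a length-scaled signal, was used. In tri-culture PRDX1 led at 397 ± 104, followed by GCLC (206 ± 47.2), TXN (186 ± 76.8), GSR (137 ± 12.5) and TXNRD1 (135 ± 24.1) (SD, n = 4). NFE2L2 (44.0 ± 6.30), KEAP1 (38.5 ± 5.52), NQO1 (22.6 ± 10.0), GCLM (11.5 ± 1.39) and SRXN1 (0.713 ± 0.305) followed. The ranges of GCLC and TXN overlapped, as did those of TXN and GSR, of GSR and TXNRD1, of NFE2L2 and KEAP1, and of KEAP1 and NQO1. In mono-culture the order began PRDX1 (428 ± 54.6), GSR (275 ± 47.3), GCLC (212 ± 34.9), TXN (185 ± 21.6) and TXNRD1 (149 ± 37.8). It ended NFE2L2 (50.7 ± 4.74), KEAP1 (48.2 ± 4.81), NQO1 (34.8 ± 8.57), GCLM (18.0 ± 4.58) and SRXN1 (1.65 ± 1.43). Overlapping neighbours there were GSR and GCLC, GCLC and TXN, TXN and TXNRD1, NFE2L2 and KEAP1, and NQO1 and GCLM. GSR was 4th in tri-culture and 2nd in mono-culture, and the other 9 genes kept their order relative to each other.

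Within a group, the 10 genes tended to be high in the same library, and in tri-culture they also tended to be low in the same one. Tri-culture library 2 was the highest of its group for 8 of 10 members, beside 23.5% of all tested genes, and tri-culture library 4 was the lowest for 7 of 10, beside 29.7%. Mono-culture library 1 was the highest of its group for 8 of 10, beside 25.4%. The lowest mono-culture library was library 2 for 3 members, library 3 for 3 and library 4 for 4. Of all tested genes, these libraries were lowest for 25.9%, 24.9% and 21.6%. Tri-culture library 4 was also often lowest in the wider redox lists described below. The share was 46.4% of other NRF2 targets, 48.3% of glutathione, 54.5% of thioredoxin and 61.1% of NADPH genes, and 31.6% of NRF2 regulators. Mono-culture library 1 was highest for 46.4% of other NRF2 targets but 13.8% of glutathione genes. The summed level of the members was 1530, 2030, 1640 and 1343 CPM in the tri-culture libraries of batches 1 to 4, and 2278, 1931, 1816 and 1689 CPM in the mono-culture libraries. The sums overlapped between groups. Relative to the mean, GSR varied least among tri-culture libraries (coefficient of variation 8.28%) and NQO1 most (43.6%). Among mono-culture libraries KEAP1 varied least (10.0%) and SRXN1 most (85.4%).

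**Figure D3:**
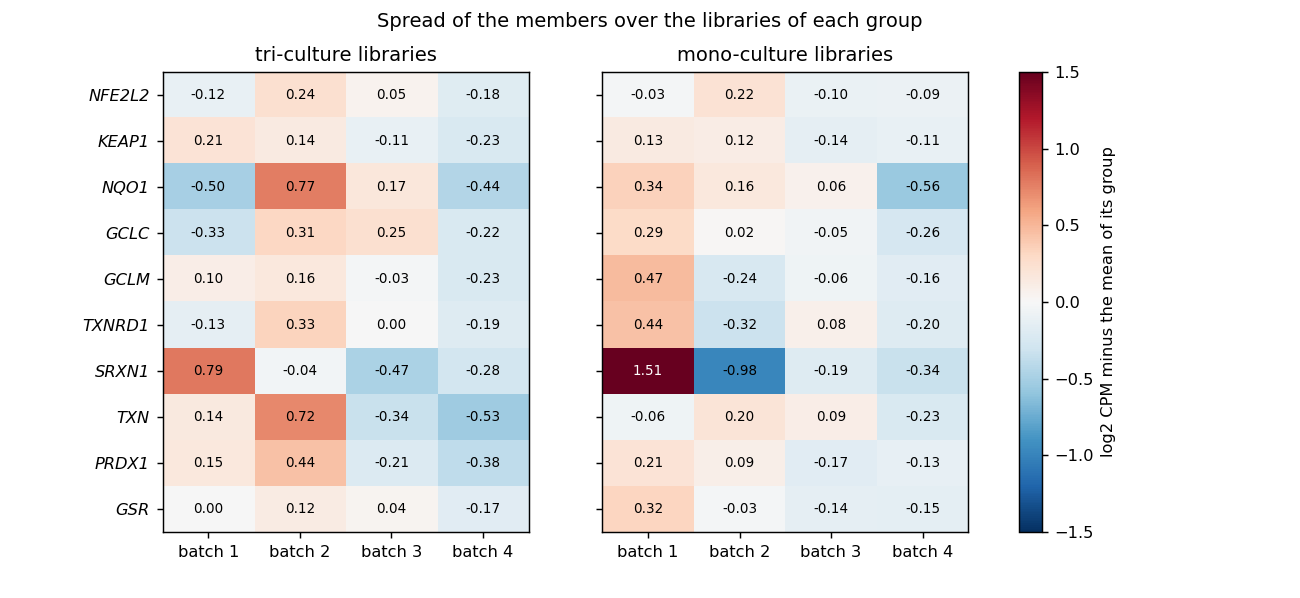
Deviation of each library from the mean of its own group in log2 CPM, for the 10 genes (rows) and the tri-culture (left) and mono-culture (right) libraries. The column of tri-culture library 2 is mostly above 0 and that of tri-culture library 4 below 0 throughout. The largest value is SRXN1 in mono-culture library 1, at 1.51.

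Wider lists of redox genes showed which neighbours of these 10 moved. Each list excludes the 10, and lists share some genes, such as PGD and ME1. Of 35 other genes described as NRF2 targets 28 were tested, and 2 were higher, 11 lower and 15 not called, with a median log2 fold change of -0.27. Beside them, 13.9% of all tested genes were higher and 13.0% lower. Among the genes that fell were HMOX1, PGD, ME1, OSGIN1, FTH1, BLVRB, PIR, SQSTM1, MAFG and SLC48A1, and those that rose were ABCC4 and AKR1B1. FTH1 has many processed pseudogenes among which reads can be split, so its value is uncertain.

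BLVRB, which reduces biliverdin and flavins, averaged 45.2 ± 6.36 CPM in tri-culture and 230 ± 33.8 CPM in mono-culture (SD, n = 4 each), a log2 fold change of -2.35 ± 0.14 (SE, edgeR adjusted p = 1.43e-07). OSGIN1, an oxidative stress-induced growth inhibitor, averaged 1.74 ± 0.449 CPM in tri-culture and 10.1 ± 2.17 CPM in mono-culture (log2 fold change -2.53 ± 0.25, and -1.65 by limma-trend on the signal with a pseudocount of 1). The cytosolic malic enzyme ME1, a source of NADPH averaged 31.9 ± 9.95 CPM in tri-culture and 102 ± 11.04 CPM in mono-culture (log2 fold change -1.67 ± 0.19). In all 3 genes the groups did not overlap. ABCC4, an efflux pump for organic anions and cyclic nucleotides, ran the other way, at 350 ± 15.02 CPM in tri-culture and 75.6 ± 12.2 CPM in mono-culture (log2 fold change 2.21 ± 0.13, edgeR adjusted p = 1.08e-07). HMOX1, haem oxygenase 1, averaged 257 ± 30.2 CPM in tri-culture and 391 ± 107 CPM in mono-culture, and the groups overlapped. Its log2 fold change of -0.60 ± 0.18 passed the test (edgeR adjusted p = 0.0268), but the call was lost without tri-culture library 3 (0.0600) or 4 (0.0681) and without mono-culture library 1 (0.0907), 2 (0.0659) or 3 (0.0505). SLC7A11, the cystine importer, had 3.63 ± 1.33 CPM in tri-culture and 4.30 ± 2.097 CPM in mono-culture and was not called (edgeR adjusted p = 0.653).

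Among 20 relatives, partners and regulators of NRF2, 19 were tested and 0 were higher, 7 lower and 12 not called, with a median of -0.16. In some alternatives, among them 7 of the 8 fits that left out 1 library, 1 of the 20 was higher. The filter was redone when libraries were left out, so this need not be 1 of the 19. NFE2, untested in the main fit, had 17, 11, 11 and 16 counts in tri-culture and 3, 1, 0 and 1 in mono-culture. SQSTM1, the autophagy receptor p62 that can draw KEAP1 away from NRF2, averaged 190 ± 20.5 CPM in tri-culture and 358 ± 97.6 CPM in mono-culture (log2 fold change -0.91 ± 0.17, edgeR adjusted p = 0.00131). The small MAF partners MAFF, MAFG and MAFK all fell. MAFF had 13.5 ± 1.57 CPM in tri-culture and 30.8 ± 6.39 CPM in mono-culture (log2 fold change -1.19 ± 0.16), and MAFG had 76.1 ± 11.9 CPM in tri-culture and 124 ± 11.3 CPM in mono-culture (-0.71 ± 0.13). The related factor NFE2L1, which activates proteasome genes, averaged 206 ± 7.73 CPM in tri-culture and 290 ± 20.4 CPM in mono-culture (log2 fold change -0.50 ± 0.10). NFE2L3 and DPP3 completed the 7. BACH1, a repressor that competes for the same element, had 139 ± 10.3 CPM in tri-culture and 155 ± 3.87 CPM in mono-culture and was not called (log2 fold change -0.16 ± 0.10, edgeR adjusted p = 0.273).

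Of 31 other glutathione genes 29 were tested, with 3 higher, 5 lower and 21 not called, and a median of -0.12. With batch as a block 5 were higher, and without batch 2 only 3 were lower. The largest fall was in CHAC1, which breaks glutathione down, at 0.252 ± 0.137 CPM in tri-culture and 2.56 ± 1.29 CPM in mono-culture (log2 fold change -3.31 ± 0.56, edgeR adjusted p = 0.000587), from 3 to 9 counts in each tri-culture library. On the signal with a pseudocount of 1, which understates changes of low genes, limma-trend gave -1.81. GLRX3, a glutaredoxin of iron-sulfur cluster handling, averaged 50.7 ± 7.86 CPM in tri-culture and 78.6 ± 4.03 CPM in mono-culture (-0.63 ± 0.12). SLC3A2, GPX3 and OPLAH also fell. GLO1, which clears methylglyoxal with glutathione, rose to 176 ± 35.8 CPM in tri-culture, against 104 ± 4.29 CPM in mono-culture (0.76 ± 0.14). The glutathione transferase GSTM3 rose to 13.8 ± 2.85 CPM in tri-culture, against 4.91 ± 0.908 CPM in mono-culture (1.49 ± 0.20), and GSTM2 was also higher. Reads of these GSTM paralogs can be split between near-identical copies. GPX4, which reduces lipid hydroperoxides, was not called at 172 ± 42.1 CPM in tri-culture and 212 ± 36.5 CPM in mono-culture (edgeR adjusted p = 0.238, and 0.0382 with batch as a block).

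All 22 other genes of the thioredoxin system were tested, with 3 higher, 6 lower and 13 not called, and a median of -0.06. The 6 became 3 without tri-culture library 3 or 4 or mono-culture library 1, 2 or 4, each left out in turn. TXNIP, which binds and inhibits thioredoxin and restrains glucose uptake, had 3280, 1788, 1567 and 1654 CPM in the tri-culture libraries of batches 1 to 4. In the mono-culture libraries it had 731, 384, 304 and 326 CPM. Library 1 was the highest in both groups, and the groups did not overlap. The log2 fold change was 2.25 ± 0.31 (SE, edgeR adjusted p = 0.000132), a 4.75-fold higher mean. NXN rose too, and MSRB3, a methionine sulfoxide reductase, averaged 1.23 ± 0.478 CPM in tri-culture with no count in mono-culture, at least 40.0-fold higher than the floor of 3 counts over the group (0.0308 CPM). MSRA, another methionine sulfoxide reductase, averaged 23.1 ± 1.598 CPM in tri-culture and 41.3 ± 9.59 CPM in mono-culture (log2 fold change -0.84 ± 0.15, edgeR adjusted p = 0.0011). SESN2, a stress-induced sestrin, averaged 32.8 ± 4.68 CPM in tri-culture and 47.8 ± 7.41 CPM in mono-culture (-0.54 ± 0.14). TXNRD2, TXNRD3, PRDX3 and TXNDC17 were the other 4 that fell. PRDX5 (120 ± 32.6 CPM in tri-culture and 150 ± 23.9 CPM in mono-culture) and PRDX6 (83.3 ± 5.32 CPM in tri-culture and 87.7 ± 8.46 CPM in mono-culture) were not called. The adjusted p of PRDX5 was 0.219, and 0.0319 without tri-culture library 1.

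**Figure D4:**
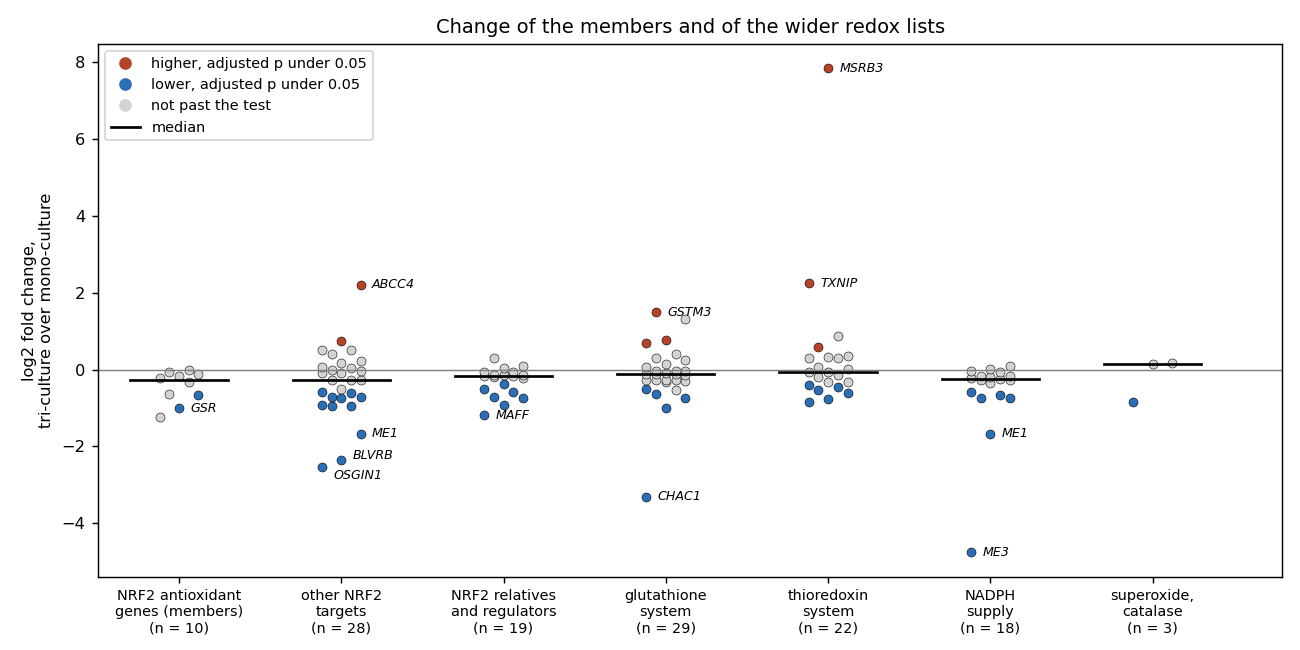
Fitted log2 fold change of tri-culture over mono-culture for every tested gene of the 10 and of each wider list, with 1 point a gene, coloured by call, and a black bar at the list's median. The medians lie between -0.27 and 0.14. The MSRB3 point has no mono-culture count, so its height depends on the prior count of the fit and is no measured fold.

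The 18 genes of NADPH supply, on which both GSR and TXNRD1 draw, were all tested, and 0 were higher, 6 lower and 12 not called, with a median of -0.25. PGD, an NADPH-producing enzyme of the pentose phosphate pathway, averaged 206 ± 17.02 CPM in tri-culture and 342 ± 46.3 CPM in mono-culture (log2 fold change -0.73 ± 0.12, edgeR adjusted p = 0.000641). The mitochondrial malic enzyme ME3 had 0.188 ± 0.112 CPM in tri-culture and 5.34 ± 2.14 CPM in mono-culture (-4.76 ± 0.47), from 2 to 8 counts in each tri-culture library. On the signal with a pseudocount of 1, which understates changes of low genes, limma-trend gave -1.80 for ME3. MTHFD1, of one-carbon folate metabolism, averaged 49.9 ± 3.44 CPM in tri-culture and 83.3 ± 13.3 CPM in mono-culture (-0.74 ± 0.12). ME1, given above, and IDH1 also fell.

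Of a list of 4 genes, superoxide dismutases and catalase, 3 were tested, with 0 higher and 1 lower, and a median of 0.14. SOD2, the mitochondrial superoxide dismutase, fell to 534 ± 83.9 CPM in tri-culture, against 959 ± 249 CPM in mono-culture (log2 fold change -0.85 ± 0.19, edgeR adjusted p = 0.00428). CAT, catalase, had 106 ± 11.6 CPM in tri-culture and 95.1 ± 8.53 CPM in mono-culture and was not called (0.16 ± 0.11). Over all wider lists 110 distinct genes were tested, of which 8 (7.27%) were higher and 31 (28.2%) lower, beside 13.9% and 13.0% of all tested genes. The count of 31 ran from 21 to 42 over the alternatives. The lists were chosen with earlier results known, so these shares are a description.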

How the data were processed

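Total RNA of sorted microglia was sequenced in bulk. The deposited count table holds whole-number counts per gene. The submitters' processing notes list HISAT2 2.1.0, featureCounts 2.12.3 and the build GRCh38. Not given in the sources used here are the annotation release, the strand setting and how shared reads were handled. The other deposited table, which the authors named TPM, holds a length-scaled signal with a further scaling per library that is not stated. It was used for levels per length and as an alternative.

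Genes were filtered with filterByExpr (minimum count 10, minimum total 15), scaled with TMM and tested with edgeR 4.0.16 in R 4.3.3 (quasi-likelihood, robust, group only), with adjustment over 16249 genes and a threshold of 0.05. Mean values carry the SD over libraries. SE is approximate, computed as the size of the log2 fold change over the root of F. Floors cover counting error only. Coordinates come from GENCODE 29 on GRCh38. Scripts were tested on simulated data.

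The labels give shared batch numbers and describe the batches as independent, and these numbers were taken as pairs. Within a batch, deviations from the group means correlated at 0.185, 0.126, 0.264 and 0.0796. Some libraries of different batches correlated more closely, such as tri-culture library 4 with mono-culture library 3 (0.360) and tri-culture library 1 with mono-culture library 2 (0.233), so the pairing rests on the labels. Replicates differed by more than sampling noise. Alternatives were other scalings (DESeq2 1.42.0 size factors, library size, upper quartile), other filters, DESeq2, limma-trend (limma 3.58.1) on the signal with a pseudocount of 1 or 0.1, the block, and each library, batch or pair of batches left out.

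The 10 genes and the wider lists were chosen with earlier results of these data known. Named genes were the 10, 12 genes named whatever their p, and, from each list, the called genes of smallest adjusted p, up to 4. Other called genes are named to show what a list's count holds. A gene that this rule names is not reported here.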

Additional observations from a re-analysis of the deposited data

Results flagged for a closer look

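In 3 of 76 groups of 4 values, the highest library stood far from the other 3 by Dixon's criterion, which chance alone meets in about 1 in 20 groups. SRXN1 was at 2.81 CPM in mono-culture library 1. TXNIP was at 3280 CPM in tri-culture library 1. SESN2 was at 39.7 CPM in tri-culture library 1. All 3 values come from batch 1, and those of TXNIP and SESN2 come from the same library.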

How the results depend on the processing

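GSR was called lower under every alternative tried, and GCLM under all but the one without batches 3 and 4. The count of members called lower, 2, was 4 with the batch as a block and without batches 1 and 2, and 1 without batches 3 and 4. With 1 library left out the count was 2 or 3. NQO1 joined GSR and GCLM with no filter on low counts, without tri-culture library 2 and without batch 2. KEAP1 joined them without tri-culture library 1. Genes of the wider lists called higher numbered 13 with no filter on low counts, beside 8. Members with the promoter core numbered 5 with the looser TGANNNNGC, which 47.1% of genes held, beside 3. Values that changed sign were all of genes not called. Library-size scaling moved the median of all tested genes to 0.12 and the share of calls that were higher to 63.0%, beside 51.7%, and upper-quartile scaling gave 60.6%. Library-size scaling gave log2 fold changes of 0.048 for GCLC, 0.077 for TXN and 0.024 for PRDX6, all below that median. Upper-quartile scaling gave 0.026 for GCLC, 0.064 for TXN and 0.0028 for PRDX6. TXN was 0.002745 with the stricter filter and 0.30 without batches 3 and 4, and GCLC 0.12 without batches 1 and 2. With 1 library left out, log2 fold changes ran from -0.16 to 0.049 for GCLC, -0.31 to 0.15 for TXN and -0.28 to 0.011 for TXNRD1. Without batch 1 they were 0.15 for GCLC, 0.054 for TXNRD1 and 0.11 for SLC7A11, and TXN was 0.14 without batch 3 and 0.077 without batch 4. The batch block carried KEAP1, NQO1 and GPX4 past the threshold and ended no call among the genes given with values. SESN2 lost its call without batch 2 (adjusted p = 0.0780) and GLRX3 without batches 3 and 4 (0.0621). HMOX1 also lost it with limma-trend on the signal (0.0784 and 0.0768). Leaving out batch 1 (0.104), 2 (0.0747), 3 (0.0990) or batches 1 and 2 together (0.178) ended the HMOX1 call too. In all, the HMOX1 call was lost in 11 of 23 alternatives. NQO1 gained a call with no filter (0.00113). The cause of these changes was not tested. Without batches 1 and 2, 9 glutathione and 10 NADPH genes were lower, beside 5 and 6. SRXN1 rests on 8 to 82 counts a library, and its value turned on mono-culture library 1.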
